A study of Homo sapiens with 15 samples.

Results

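The HOX cluster genes were described here as they were measured by expression array in PE/CA-PJ41, an established human oral squamous carcinoma cell line, and were chosen as every non-control probe whose RefSeq accession belonged to a gene named HOXA, HOXB, HOXC or HOXD with a paralog number. All 39 such genes had a probe, with 43 of the 42405 non-control probes on the array, and 4 genes (HOXA9, HOXA10, HOXB2 and HOXD9) had 2 probes. The comparison was between a control population of the line, NCE, and a stably transfected one, CYGB+. Per the labels NCE cells carried the empty transfection vector, while parts of the study's text call its control cells un-transfected, so that an effect of transfection and selection cannot be told apart from one of the transgene if the latter holds. CYGB+ cells carried pCMV6-Neo, which drives the human cytoglobin cDNA from a viral promoter, and per the study's methods they were 1 ring-cloned line, LST421, selected in G418, so that a property of the clone and an effect of the transgene cannot be told apart. RNA was taken on 3 occasions, which gave 3 biological replicates a group, and the labels do not say whether these were separate cultures, so that p-values measure the spread between these extractions. Each NCE replicate was run on 3 arrays and each CYGB+ replicate on 2 arrays, 15 arrays in all, and the repeat arrays of a replicate were averaged before any comparison.

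HOX genes encode homeodomain transcription factors that lie side by side in clusters, HOXA on chromosome 7, HOXB on chromosome 17, HOXC on chromosome 12 and HOXD on chromosome 2. Genes in the same position of different clusters, called paralogs, share a number, and low-numbered (anterior) genes act nearer the head of the embryo than high-numbered (posterior) genes. Many adult epithelia and tumours keep a pattern of HOX expression that reflects where they came from. Polycomb proteins hold the clusters silent, Trithorax proteins keep them active, retinoic acid induces them, and PBX, MEIS and PKNOX proteins (the TALE class) bind DNA together with HOX proteins.

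Several facts about the arrays stand beside every value that follows. The probe for CYGB itself did not separate the groups. It read 11.87, 12.16 and 11.94 in the NCE replicates and 11.36, 12.42 and 11.96 in the CYGB+ replicates on the normalised log2 intensity scale, and it was well above background on all 15 arrays. The difference was -0.07 ± 0.25 (SE; limma adjusted p = 0.879), so this probe did not separate the labels, and whether it lies in the part of the gene that the plasmid carries was not known here. The study describes the parent line as one that does not express cytoglobin, whereas this probe was bright on the NCE arrays. The reason was not tested. The study measured cytoglobin in the clone by other means, which were not analysed here. NCE and CYGB+ therefore mean the arrays labelled so throughout, and each direction below rests on those labels. The 2 slides were close to the 2 groups: slide 1 held 8 NCE arrays, and slide 2 held the last NCE array, from replicate 1, with all 6 CYGB+ arrays. Values within slide 2 are given beside the results, and there the lone NCE sample had to be assumed to vary like the CYGB+ samples. The arrays that stood apart numbered 3, with a median correlation to the other arrays of their group of 0.940 to 0.979 against 0.984 to 0.992 for the other 12 arrays. They were 1 array of NCE replicate 3, 1 of CYGB+ replicate 1 and 1 of CYGB+ replicate 3, and results are also given without these 3 arrays. All 9 squamous epithelial markers checked, such as KRT5, KRT14 and TP63, were above background on every array, and 2 of them fell in CYGB+, CDH3 by 1.09 (adjusted p = 0.0103) and KRT6A by 0.51 (adjusted p = 0.0266) on the log2 scale. Of 5 fibroblast markers, LUM and PDGFRB were above background on no array and DCN on 1 of 15, while COL1A2 fell by 1.33 on the log2 scale in CYGB+ (adjusted p = 0.0032) and COL1A1, on 7 of 9 NCE and all CYGB+ arrays, differed by 0.10 (adjusted p = 0.712). The 5 fibroblast probes summed to linear intensities of 491 to 539 in NCE and 359 to 383 in CYGB+, COL1A2 being the one member of the list that passed the test, and their part in the HOX results was not tested. Among 3 endothelial, 4 leukocyte and 3 melanocyte markers, 1 gene of each list was tested and none passed. These were CD14 and PMEL, above background on all 15 arrays, and CDH5, on 8 of 9 NCE and all 6 CYGB+ arrays. The other members were above background on fewer arrays or on none.

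Which HOX genes the line expresses was read from the scanner's flag for a spot well above background. It marked 21 of the 39 HOX genes on every NCE array, 21 on every CYGB+ array and 20 on all 15 arrays. In such bulk RNA, fewer cells expressing a gene and less of its RNA per cell cannot be told apart. Another 9 genes were above background on no array, among them HOXB1, HOXB13, HOXC5, HOXC10, HOXC12, HOXD1, HOXD4 and HOXD12. Both genes of paralog number 12 were among those 9. Paralogs 6, 7 and 9 were above background on every array in each cluster that has such a gene, with HOXA6, HOXB6 and HOXC6, HOXA7 and HOXB7, and HOXA9, HOXB9, HOXC9 and HOXD9. The HOXA cluster was the most fully detected, with 9 of its 11 genes on every NCE array and 8 on every CYGB+ array. HOXB showed 4 of 10 genes on every array of either group, HOXC 4 of 9 on every NCE and 5 of 9 on every CYGB+ array, and HOXD 4 of 9 in both. HOXD genes above background everywhere were HOXD9, HOXD10, HOXD11 and HOXD13, all at the posterior end. The map of the clusters shows the same genes by paralog number.

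**Figure D1:**
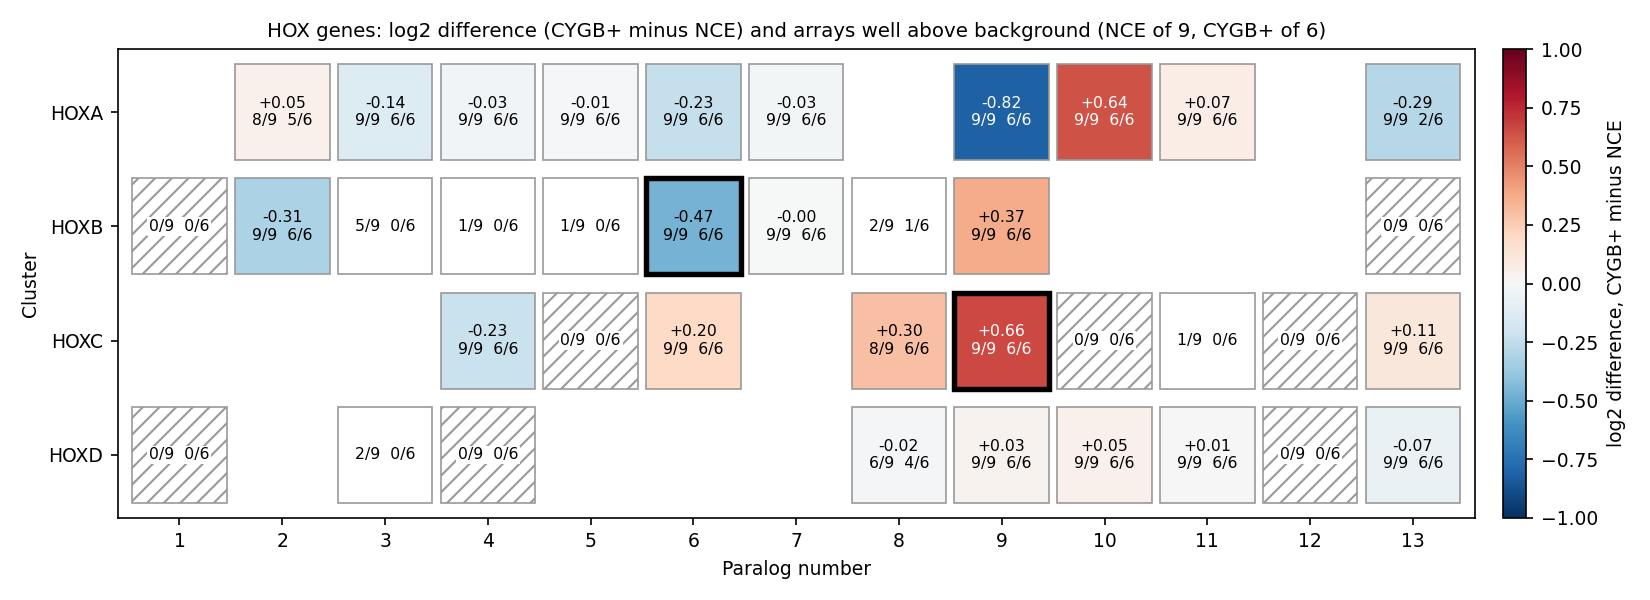
Each square is 1 of the HOX genes named in the text, placed by cluster (rows) and paralog number (columns). The upper number and the colour give the log2 difference, CYGB+ minus NCE, for the 24 genes tested, and the lower pair gives the arrays well above background of 9 NCE and 6 CYGB+ arrays. Hatched squares were above background on no array, plain white squares on too few for a test, and thick frames mark HOXB6 and HOXC9, which passed the test.

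Detection differed most between the groups at HOXA13 and HOXB3. HOXA13, the most posterior gene of its cluster, was above background on 9 of 9 NCE arrays and 2 of 6 CYGB+ arrays. HOXB3, an anterior gene, was above background on 5 of 9 NCE arrays and on none of 6 CYGB+ arrays. All 5 were on slide 1, and the NCE array on slide 2 did not show HOXB3 above background either. Within slide 2 its detection therefore did not differ between the groups. HOXB3 stood at 6.28 in NCE and 6.02 in CYGB+, and it was on too few arrays to be tested. The NCE arrays that did not show HOXB3 well above background read 6.15 to 6.25, so no fold is given for it. The other partly detected genes were HOXA2 (8 NCE and 5 CYGB+ arrays), HOXB4 (1 and 0), HOXB5 (1 and 0), HOXB8 (2 and 1), HOXC8 (8 and 6), HOXC11 (1 and 0), HOXD3 (2 and 0) and HOXD8 (6 and 4). No fold is given for HOXB4, HOXB5, HOXB8, HOXC11 and HOXD3, which most arrays of both groups did not show well above background.

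A probe was tested where it was well above background on at least 6 of the 15 arrays, and 24 HOX genes met this. By limma on 3 replicates against 3, with p-values adjusted over all 22328 probes tested, 2 of the 24 HOX genes passed an adjusted p of 0.05. Over all probes tested 10.8% passed, with 5.26% higher and 5.54% lower in CYGB+, so the HOX count lay near the background share. The median difference of the 24 HOX genes was -0.01 on the log2 scale, as it was over all probes, and 11 genes had a positive and 13 a negative difference. For 7 of the 24 the replicates of the groups did not overlap, 3 higher and 4 lower in CYGB+, where 33.3% of all probes tested had no overlap. HOXA13, among the 4 lower genes, reached the minimum of 6 arrays for a test only through the NCE arrays. One gene rose, HOXC9, and one fell, HOXB6. Without the 3 arrays that stood apart, 6 of the 24 passed (22.6% of all probes did), and these were HOXA9, HOXA10, HOXB6, HOXB9, HOXC8 and HOXC9. With the slide as a block none of the 24 passed (3.43% of all probes did), although 5 had an unadjusted p below 0.05, and on slide 2 alone none passed either (0.0224% of all probes did), with 2 at an unadjusted p below 0.05.

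HOXC9, a posterior gene of the HOXC cluster, was the HOX gene that rose. It read 8.42, 8.53 and 8.50 in the NCE replicates and 9.17, 8.98 and 9.29 in the CYGB+ replicates. Every CYGB+ replicate was higher than every NCE replicate, and so was every single array, with 8.28 to 8.67 over the NCE arrays and 8.96 to 9.38 over the CYGB+ arrays. The mean was 1.58-fold higher in CYGB+, a log2 difference of 0.66 ± 0.11 (SE, n = 3 and 3; limma adjusted p = 0.0136). Within slide 2 the NCE array read 8.63 against a CYGB+ median of 9.10, and the difference was 0.52 (adjusted p = 0.452). With the slide as a block it was 0.47 (adjusted p = 0.220), and without the 3 arrays that stood apart 0.60 (adjusted p = 0.00379). Its call was also lost without NCE replicate 2 (adjusted p = 0.0601) and without NCE replicate 3 (adjusted p = 0.0618).

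HOXB6, a gene from the middle of the HOXB cluster, was the HOX gene that fell. It read 10.81, 10.80 and 10.75 in the NCE replicates and 10.21, 10.40 and 10.33 in the CYGB+ replicates. The NCE replicates lay close together (SD 0.030), and all 9 NCE arrays (10.69 to 10.84) were above all 6 CYGB+ arrays (10.07 to 10.49). The mean was 1.38-fold lower in CYGB+, a log2 difference of -0.47 ± 0.09 (SE, n = 3 and 3; limma adjusted p = 0.0224). The size was nearly the same within slide 2, at -0.47 (adjusted p = 0.440), and with the slide as a block, at -0.46 (adjusted p = 0.0702). Without the 3 arrays that stood apart it was -0.41 (adjusted p = 0.00679). The call was lost when NCE replicate 1, NCE replicate 2, NCE replicate 3 or CYGB+ replicate 3 was left out, with adjusted p of 0.0696, 0.0981, 0.0869 and 0.0578 in that order.

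**Figure D2:**
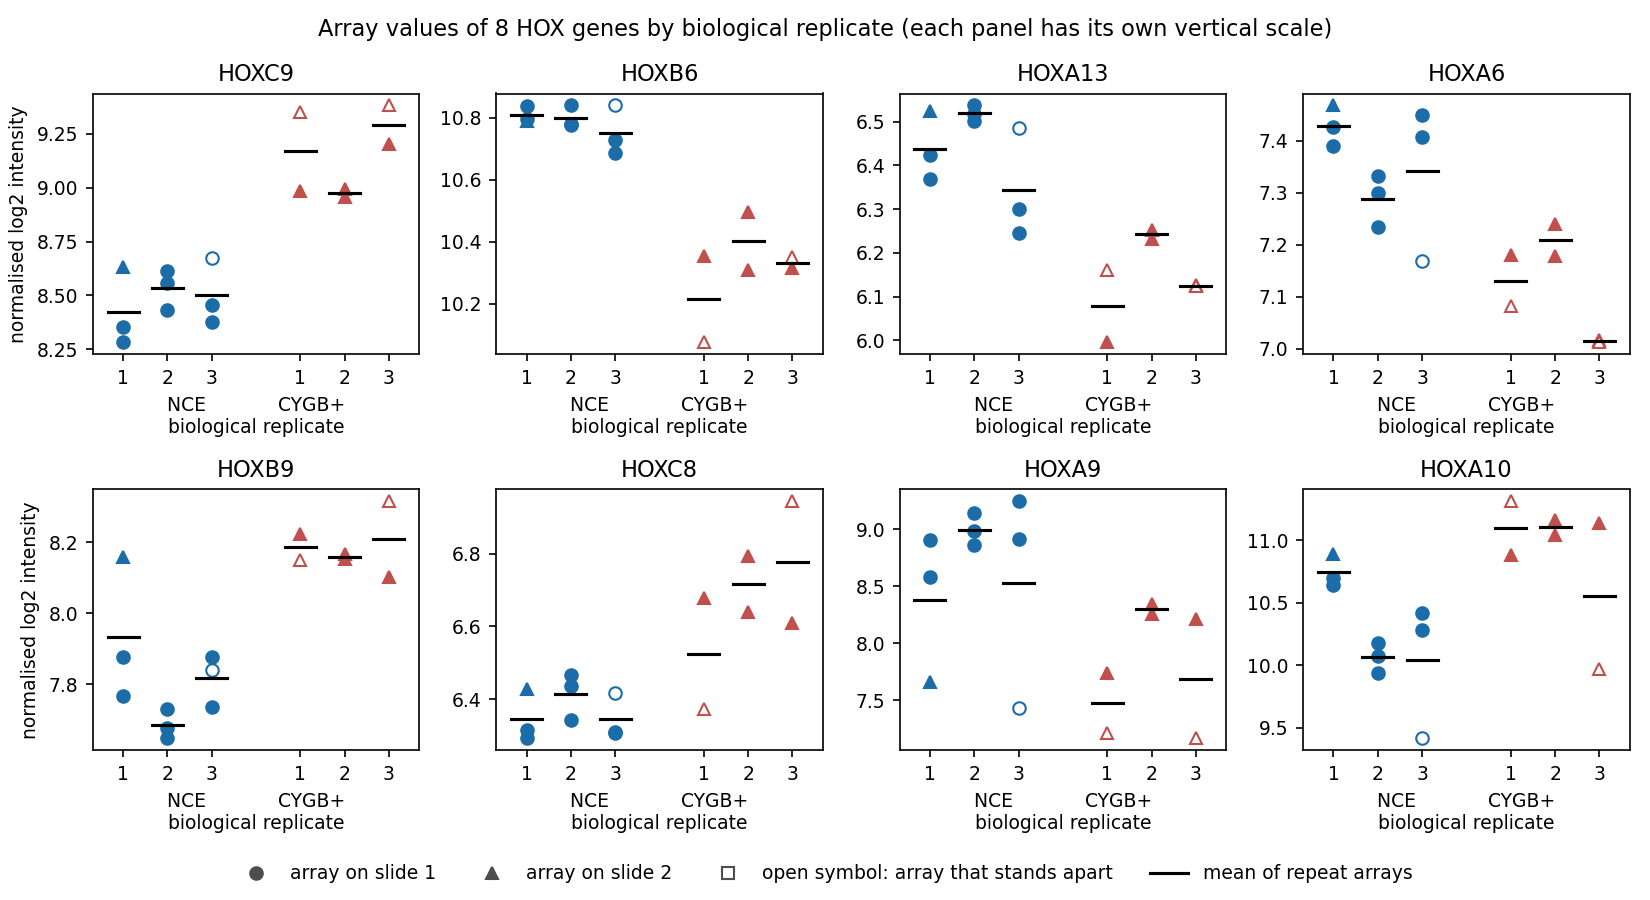
Normalised log2 intensity of every array for 8 HOX genes, by biological replicate, with NCE on the left and CYGB+ on the right of each panel. Circles are arrays on slide 1, triangles arrays on slide 2, open symbols the 3 arrays that stood apart, and bars the mean of a replicate's arrays. HOXC9 and HOXB6 separate by group on every array, while the slide 2 array of NCE replicate 1 lies among the CYGB+ arrays for HOXA9, HOXA10, HOXB9 and HOXC8.

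The HOXA cluster held the extremes among genes that did not pass. HOXA9, a posterior gene known for its part in leukaemia, read 8.38, 8.996 and 8.53 in NCE and 7.47, 8.30 and 7.69 in CYGB+. The replicates did not overlap, and the difference was -0.82 ± 0.24 (SE; adjusted p = 0.0769). The arrays of a replicate were far from equal for this probe. NCE replicate 1 gave 8.58 and 8.91 on slide 1 and 7.65 on slide 2, and the array of NCE replicate 3 that stood apart gave 7.43. Within slide 2 the difference turned to 0.16 (adjusted p = 0.929), and with the slide as a block it was also 0.16 (adjusted p = 0.968). A second HOXA9 probe read 7.68, 7.28 and 7.61 in NCE and 7.47, 7.30 and 7.22 in CYGB+, a difference of -0.20 ± 0.13 (SE; adjusted p = 0.398). With the replicate number as a block the first probe passed (adjusted p = 0.0128), as did HOXA10 (adjusted p = 0.0476), and 4 of the 24 HOX genes did in all, where 13% of all probes did.

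HOXA10, the neighbour of HOXA9, had a difference of the opposite sign, which was also near 0 within slide 2. It read 10.74, 10.06 and 10.04 in NCE and 11.10, 11.10 and 10.55 in CYGB+, so the groups overlapped. The difference was 0.64 ± 0.23 (SE; adjusted p = 0.130). It was 0.03 within slide 2 (adjusted p = 0.989), and 0.66 without the 3 arrays that stood apart (adjusted p = 0.0273). The second HOXA10 probe disagreed in sign, with 8.02, 7.91 and 7.82 in NCE, 7.57, 7.93 and 7.96 in CYGB+, and a difference of -0.10 ± 0.13 (SE; adjusted p = 0.677).

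HOXA13 and HOXA6 were lower in each CYGB+ replicate without passing the test. HOXA13 read 6.44, 6.52 and 6.34 in NCE and 6.08, 6.24 and 6.12 in CYGB+, a difference of -0.29 ± 0.09 (SE; adjusted p = 0.103). These levels lay just above the floor of about 6 that the background correction sets, and 4 of the 6 CYGB+ arrays were not well above background, so the difference is not an exact size. HOXA13 reached the minimum of 6 arrays for a test through the NCE arrays. Its difference was -1.75 on the scanner's processed signal (limma adjusted p = 0.0060) and -0.38 within slide 2, in the same direction. HOXA6 read 7.43, 7.29 and 7.34 in NCE and 7.13, 7.21 and 7.01 in CYGB+, a difference of -0.23 ± 0.09 (SE; adjusted p = 0.162), and -0.35 within slide 2.

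The other HOXA genes showed differences that were small beside their errors. HOXA7 read 10.42, 10.26 and 10.07 in NCE and 10.51, 10.19 and 9.96 in CYGB+. HOXA3 read 8.77, 8.70 and 8.65 in NCE and 8.93, 8.38 and 8.39 in CYGB+. HOXA4 read 6.96, 6.94 and 6.92 against 6.81, 6.83 and 7.08, and HOXA5 read 7.18, 6.98 and 7.08 against 7.17, 7.05 and 6.98. HOXA11 read 6.42, 6.61 and 6.47 against 6.58, 6.48 and 6.67. The groups overlapped for each of these 5 genes. The differences ran from -0.14 ± 0.16 for HOXA3 to 0.07 ± 0.10 for HOXA11 (SE), with adjusted p from 0.622 to 0.945. HOXA2, which lost 1 array to a flagged spot, differed by 0.05 ± 0.11 (SE; adjusted p = 0.814). Within slide 2 the HOXA7 difference was -0.40 where it was -0.03 over all arrays.

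Among the other HOXB genes, HOXB9 came closest to passing. It read 7.93, 7.69 and 7.82 in NCE and 8.19, 8.16 and 8.21 in CYGB+, with no overlap, a difference of 0.37 ± 0.10 (SE; adjusted p = 0.0515). It was 0.03 within slide 2 (adjusted p = 0.982), where the NCE array read 8.16 and the CYGB+ arrays 8.10 to 8.32. HOXB2 read 8.74, 9.08 and 9.01 in NCE and 8.28, 8.57 and 9.03 in CYGB+, a difference of -0.31 ± 0.19 (SE; adjusted p = 0.344). The second HOXB2 probe went the same way, at -0.37 ± 0.15 (SE; adjusted p = 0.153). HOXB7 read 6.65, 6.69 and 6.61 against 6.49, 6.67 and 6.79 and did not pass (adjusted p = 0.992), and within slide 2 its difference was -0.35. HOXB6 thus passed the test while its nearest tested neighbours on either side, HOXB2 and HOXB7, did not.

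In the HOXC cluster, 4 of the 5 tested genes had a positive difference. HOXC8, which lies beside HOXC9, read 6.34, 6.41 and 6.34 in NCE and 6.53, 6.72 and 6.78 in CYGB+, without overlap, a difference of 0.30 ± 0.10 (SE; adjusted p = 0.0962). Within slide 2 the NCE array read 6.43, inside the CYGB+ range of 6.37 to 6.94, and the difference was 0.25. It was 0.31 without the 3 arrays that stood apart (adjusted p = 0.0210) and 0.85 on the scanner's processed signal (adjusted p = 0.0418). The HOXC8 levels lay near the floor of about 6 that the background correction sets, so the difference is not an exact size. HOXC6 read 7.97, 7.65 and 7.72 against 8.21, 7.80 and 7.93, a difference of 0.20 ± 0.14 (SE; adjusted p = 0.413) that was -0.24 within slide 2. HOXC13, known for its part in hair and nail keratinisation, read 7.61, 7.31 and 7.06 against 7.18, 7.66 and 7.46, a difference of 0.11 ± 0.18 (SE; adjusted p = 0.734) that was -0.22 within slide 2. HOXC4 read 8.04, 7.49 and 7.77 against 7.96, 7.32 and 7.34, a difference of -0.23 ± 0.21 (SE; adjusted p = 0.529) that was -0.73 within slide 2. HOXC4, HOXC8 and HOXC9 kept their sign within slide 2, and HOXC6 and HOXC13 did not.

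The HOXD cluster had the narrowest range of differences over all arrays. Its 5 tested genes differed by -0.07 to 0.05, and none passed (the count at an unadjusted p below 0.05 was 0 as well). HOXD10 read 8.93, 8.98 and 9.06 in NCE and 8.77, 9.20 and 9.15 in CYGB+, a difference of 0.05 ± 0.13 (SE; adjusted p = 0.849). HOXD9 read 6.65, 6.58 and 6.63 against 6.64, 6.61 and 6.70, and its second probe was above background on no array. HOXD11 read 6.99, 7.24 and 7.15 against 6.92, 7.36 and 7.11, and HOXD13 read 6.80, 7.16 and 6.91 against 6.75, 6.89 and 7.01. The groups overlapped for all of these. Within slide 2 HOXD10 and HOXD11 differed by 0.26 and 0.38, with adjusted p above 0.05 for both.

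By paralog number the tested genes fell into 3 sets of unequal size. Of the 3 tested genes numbered 1 to 3, none passed and the median difference was -0.14. Of the 10 numbered 4 to 8, HOXB6 passed and the median was -0.03, with 8 genes negative. Of the 11 numbered 9 to 13, HOXC9 passed and the median was 0.05, with 8 genes positive. The 4 paralogs numbered 9 spanned nearly the whole range, from -0.82 for HOXA9 over 0.03 for HOXD9 and 0.37 for HOXB9 to 0.66 for HOXC9.

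**Figure D3:**
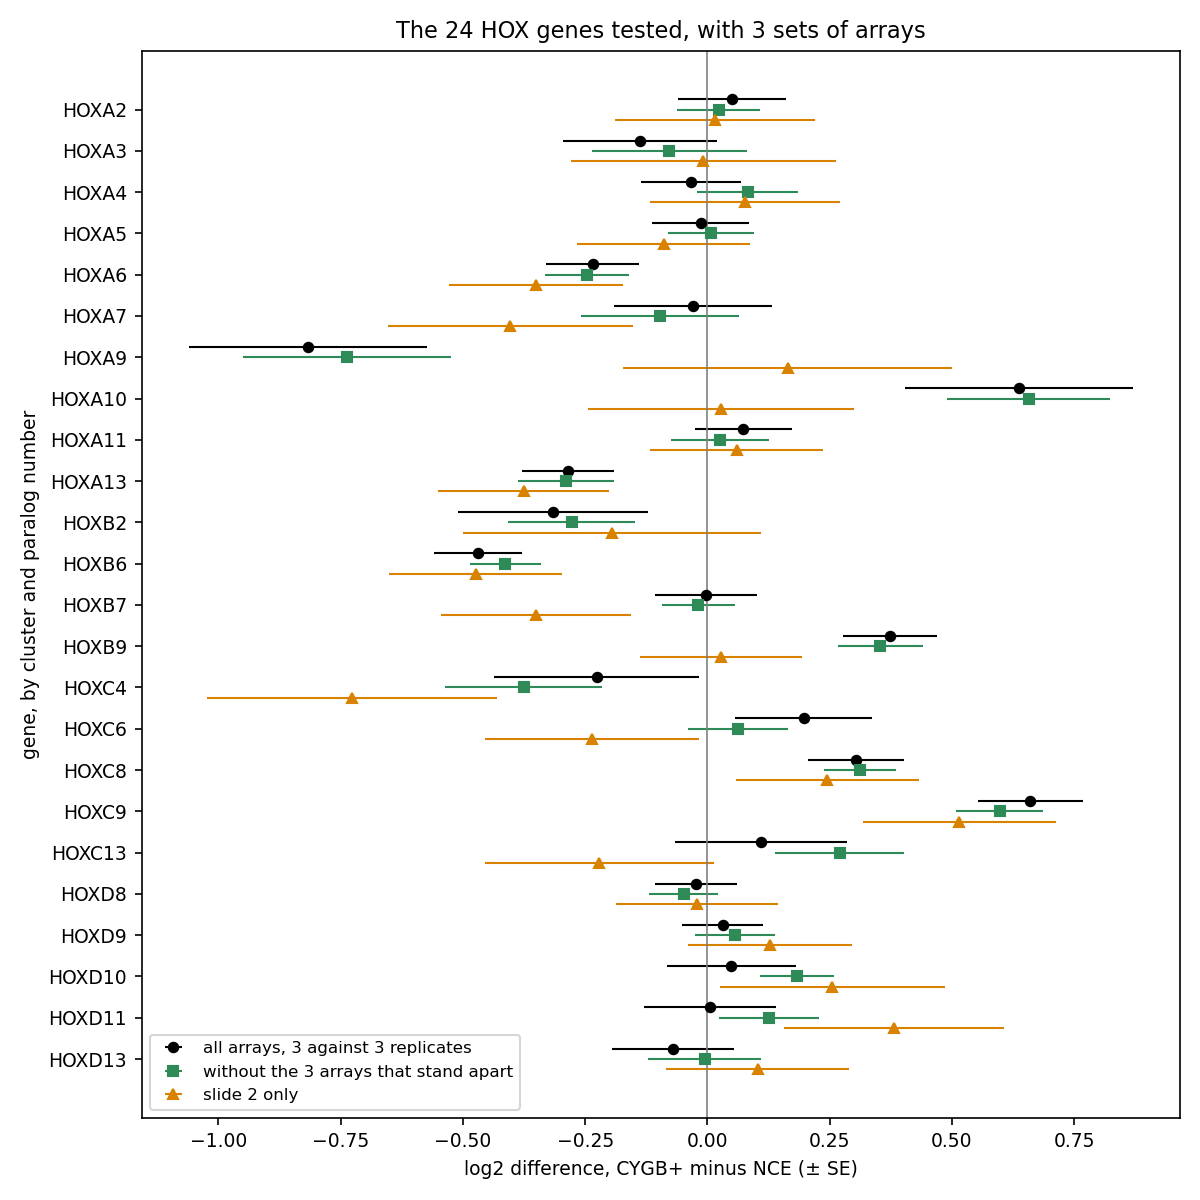
Log2 difference, CYGB+ minus NCE, with its standard error (horizontal bars) for the 24 HOX genes tested, from all arrays (circles), without the 3 arrays that stood apart (squares) and on slide 2 alone (triangles). HOXB6, HOXC9, HOXC8, HOXA6 and HOXA13 are among the genes that keep their side of 0 in all 3 readings. Of the 24 genes, 19 keep it on slide 2 and 22 without the 3 arrays that stood apart, and the readings share arrays. HOXA9 crosses 0 and HOXA10 and HOXB9 come close to 0 on slide 2.

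One NCE replicate was run on both slides, which allowed the same sample to be read across them. For the 23 tested HOX genes with all 3 arrays of NCE replicate 1, the slide 2 array was set against the mean of the 2 slide 1 arrays. The median absolute difference was 0.19 on the log2 scale, against a median gap of 0.05 between the 2 slide 1 arrays, and it exceeded that gap for 17 of the 23 genes. HOXA9 was 1.09 lower on slide 2, which is -1.09 on the scale used for the group difference of -0.82. HOXB7, HOXC6, HOXC4, HOXB9, HOXC9 and HOXA7 were higher on slide 2, by 0.52, 0.36, 0.35, 0.34, 0.31 and 0.31. HOXD11 and HOXA3 were lower there, at -0.36 and -0.29. HOXB6 moved by -0.03. For 13 of the 23 genes this shift was larger than the group difference. It rests on 1 array on slide 2, so it has no replicate error.

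**Figure D4:**
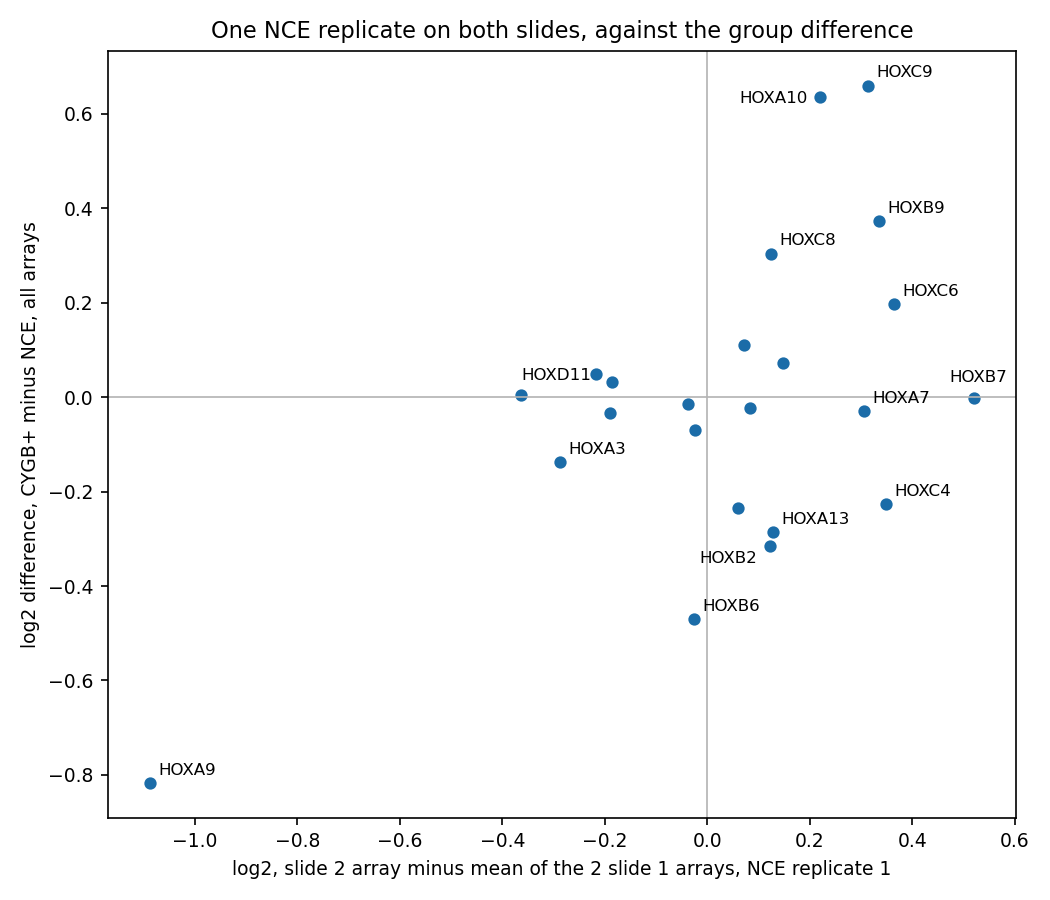
Each point is 1 of 23 HOX genes. The horizontal axis gives the log2 value of the slide 2 array of NCE replicate 1 minus the mean of its 2 slide 1 arrays, and the vertical axis the log2 difference between CYGB+ and NCE over all arrays, which includes these 3 arrays. HOXA9 lies far to the lower left at -1.09 and -0.82, HOXB6 lies low at a slide shift of -0.03, and HOXC9 lies high at a slide shift of 0.31.

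Genes that work with HOX proteins or act on the clusters were read from lists of 75 genes, of which 73 had a probe and 62 were tested. Of these, 5 passed, 2 higher and 3 lower in CYGB+, and the median difference was -0.02, where 10.8% of all probes tested passed. The 5 became 3 without NCE replicate 1, 1 without NCE replicate 2, 1 without NCE replicate 3 and 3 without CYGB+ replicate 3. Of the TALE cofactors, PBX4 fell, with 7.98, 8.09 and 8.23 in NCE and 7.64, 7.20 and 7.40 in CYGB+, a difference of -0.69 ± 0.13 (SE; adjusted p = 0.0232) that was -0.56 within slide 2 (adjusted p = 0.466). The other tested members had small differences, with PBX2 at -0.03, PBX3 at -0.02, MEIS1 at -0.03, MEIS2 at 0.02 and PKNOX1 at -0.14, and adjusted p from 0.549 to 0.951. MEIS3 was above background on no array.

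Of 26 tested Polycomb genes, 2 fell and none rose, where 5.54% of all probes tested fell and 5.26% rose. CBX6, a chromodomain protein of Polycomb repressive complex 1, read 11.10, 10.95 and 11.34 in NCE and 10.40, 10.38 and 10.29 in CYGB+, a difference of -0.77 ± 0.12 (SE; adjusted p = 0.0114) that was -0.78 within slide 2. PCGF5, a ring finger subunit of variant complexes of the same kind, read 9.27, 9.56 and 9.22 against 8.63, 8.92 and 8.92, a difference of -0.53 ± 0.13 (SE; adjusted p = 0.0468) that was -0.36 within slide 2. The median over the 26 genes was 0.03. None of the 14 tested Trithorax and demethylase genes, of the 3 genes for geminin and chromatin looping, and of the CDX factors (1 tested) passed, with medians of 0.03, -0.11 and 0.08.

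Of 12 tested genes of the retinoid pathway, 2 rose, where 5.26% of all probes tested did. STRA6, the cell surface receptor that takes up retinol from its carrier protein, was above background on 2 of 9 NCE arrays and all 6 CYGB+ arrays, and it reached the minimum of 6 arrays for a test through the CYGB+ arrays. It read 6.28, 6.06 and 6.18 in NCE and 7.76, 6.90 and 7.04 in CYGB+, a difference of 1.06 ± 0.22 (SE; adjusted p = 0.0268) that was 0.75 within slide 2, and since most NCE arrays were not well above background it is not an exact size. RXRB, a retinoid X receptor, read 8.43, 8.22 and 8.31 against 9.05, 8.80 and 8.81, a difference of 0.57 ± 0.11 (SE; adjusted p = 0.0229) that was 0.26 within slide 2. CYP26A1, CYP26B1 and CYP26C1, which break down retinoic acid, and ALDH1A2, which makes it, were above background on no array. Of the other ALDH1A genes on the list, ALDH1A1 was above background on 2 of 9 NCE and 1 of 6 CYGB+ arrays. ALDH1A3 was above background on all 9 NCE and all 6 CYGB+ arrays. It read 10.74, 10.97 and 12.09 in NCE and 11.11, 11.60 and 11.92 in CYGB+, a difference of 0.28 ± 0.37 (SE; limma adjusted p = 0.672). With the slide as a block none of the 62 cofactor and regulator genes passed by limma (6 had an unadjusted p below 0.05).

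Of 39 listed genes that flank the clusters or lie antisense inside them, 26 had a probe and 20 were tested. Of these, 2 passed, and both rose, where 10.8% of all probes tested passed and 5.26% rose. Neither call was left without NCE replicate 2, NCE replicate 3, CYGB+ replicate 2 or CYGB+ replicate 3, and 1 was left without NCE replicate 1. SMUG1, a uracil DNA glycosylase on the HOXC side, read 9.45, 9.44 and 9.61 in NCE and 9.87, 9.95 and 10.00 in CYGB+, a difference of 0.44 ± 0.09 (SE; adjusted p = 0.0301) that was 0.41 within slide 2; it lay under the size set for naming genes and was named after its value was seen. SNX11, a sorting nexin on the HOXB side, read 8.85, 8.55 and 8.61 against 9.13, 9.41 and 9.14, a difference of 0.56 ± 0.12 (SE; adjusted p = 0.0343) that was 0.30 within slide 2. The antisense RNAs HOXA11-AS and HAGLR differed by -0.17 and 0.03 (adjusted p = 0.360 and 0.849), and HOTAIR, a long non-coding RNA of the HOXC cluster, was above background on no array. The labels do not say whether the labelling keeps the strand of a transcript.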

How the data were processed

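The authors ran RNA (50 ng) on 8-pack Agilent human gene expression arrays and deposited Feature Extraction 10.7.3.1 scanner files of a 2-colour protocol (build hg19 in the header). The deposited spot and background intensities are linear median pixel values that the authors took from the scans, with 0 or 1 flags. All labels give Cy3, while the methods give Cy5 for control RNA; the red channel's RNA is not labelled, so the green channel was used. The planned mean signal column was absent, and the median signal was used. Normexp background correction (offset 50), quantile normalisation over 15 arrays, averaging of spots and of repeat arrays, and limma 3.58.1 in R 4.3.3 on log2 values followed; control and outlier spots were dropped. A probe was tested if at least 50% of its spots were well above background on at least 6 arrays, and the brightest probe represented a gene. Adjustment was Benjamini-Hochberg at 0.05 over 22328 probes. Array number and signal over background (20719 to 24277 probes per array) limit precision, and local background was 24 to 29 on slide 1 and 37 to 43 on slide 2. Probes were named through RefSeq (25422 probes with a symbol).

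Samples followed the labels, and replicates were RNA of separate occasions. Deviations from the group means of same-numbered replicates correlated at 0.207, 0.229 and 0.300, all above the 0.1 set for taking the numbers as pairs; differently numbered replicates correlated at -0.495 to 0.287, 3 of 6 pairs above 0.1 too, so the data do not single out this pairing. The members and lists were chosen with earlier results of these data known. HOX genes above background on every array of a group are given by replicate, listed genes if they passed with a log2 difference of at least 0.5 (at most 12), and tested TALE cofactors always. Alternatives were the processed signal, 75th percentile scaling, other filters, slide and replicate blocks, an array-level fit, the methods' t-test, left-out replicates, and, chosen after seeing the data, leaving out arrays whose correlation was below 0.98. The series value table of the authors, found from the scanner values to be natural log, centred per probe and made from the green channel (15031 of its 15040 probes used), was another; the methods name quantile normalisation of 1-colour data, and its centring is not given in the sources used here. Scripts were tested on simulated data. Some genes are counted but not reported here by name.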

Additional observations from a re-analysis of the deposited data

Results flagged for a closer look

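In the red channel, whose RNA the labels do not describe and which no comparison used, 22 HOX genes were well above background on all 15 arrays, against 20 in the green channel, and 2 of the 22 did not reach this in green. No control sample exists for that channel.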

How the results depend on the processing

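The 2 HOX genes that passed became 4 on the processed signal, 1 with 75th percentile scaling, 4 without the filter on dim probes, 0 with the slide as a block, 0 on slide 2 alone (2 genes at an unadjusted p below 0.05), 6 in the array-level fit, 4 with the replicate block, 1 by the methods' t-test, 1 of 14 genes in the submitters' value table and 6 without the arrays that stood apart. Leaving out 1 replicate gave 0 (without NCE replicate 2 or 3) to 3 (without CYGB+ replicate 1 or 2). For the 5 cofactor and regulator genes the counts were 3 on the processed signal, 3 without the filter, 0 with the slide as a block, 0 on slide 2 alone (5 unadjusted), 12 in the array-level fit, 0 by the methods' t-test, 3 in the value table, 11 without the arrays that stood apart and 1 to 5 without 1 replicate. For the 2 flank genes they were 0 on the processed signal, 0 with 75th percentile scaling, 1 without the filter, 0 with the slide as a block (4 unadjusted), 0 on slide 2 alone (2 unadjusted), 4 in the array-level fit, 0 by the methods' t-test, 1 in the value table and 0 to 2 without 1 replicate. The 2412 probes that passed overall became 1462 with 75th percentile scaling, 765 with the slide as a block, 5 on slide 2 alone, 4852 in the array-level fit, 582 by the methods' t-test, 1444 in the value table, 5047 without the arrays that stood apart and 508 to 2392 without 1 replicate. The replicate block changed no list's count by over 1.5 times except that of the HOX genes. HOXC9 and HOXB6 kept their sign in all 17 alternatives, as did HOXA6, HOXA10, HOXB2 and HOXB9. The other filters, the array-level fit, the replicate block and the methods' t-test leave the difference itself unchanged. Their sign was therefore fixed in advance, and the remaining alternatives share arrays with the main fit. HOXC9 and HOXB6 passed in 12 and 9 of the 17 alternatives, with 13 losses in all. There were 15 cases in which another tested HOX gene passed (HOXA6, HOXA9, HOXA10, HOXA13, HOXB9 or HOXC8), and without the filter HOXB3 did. HOXA9, which passed in 3 alternatives, turned to 0.16 both on slide 2 and with the slide as a block. The causes of these shifts were not tested. The main limits are 3 replicates a group, slides nearly confounded with group, and dim probes near the background floor.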
